A study of Mus musculus with 4 samples.

Results

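The genes described here encode the mitochondrial respiratory chain: the nuclear-encoded subunits of complexes I to V, cytochrome c and a few assembly factors of complex I. They were chosen by symbol, with earlier results of these data known. A gene was a member if its symbol in the array's annotation begins with Nduf, Uqcr or Atp5, if it begins with Cox followed by a digit from 4 to 8, or if it is Sdha, Sdhb, Sdhc, Sdhd, Cycs or Cyc1. In all, 86 of the 12393 genes named on the array met this rule. Of these, 33 belong to complex I, 4 to complex II, 9 to complex III and 17 each to complexes IV and V, with Ndufa4 counted in complex IV. Cytochrome c adds 1 member and the assembly factors Ndufaf1, Ndufaf3, Ndufaf4, Ndufaf5 and Ndufaf7 add 5. A further 9 symbols that meet the rule, among them Ndufb4, Ndufs6 and Ndufa11, lie on probe sets assigned to several genes and were left out. Genes of the mitochondrial genome are not part of the rule.

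Expression was measured on 4 arrays, 1 for each of 4 cell populations sorted from mouse bone marrow. All mice were untreated, 8 weeks old, backcrossed onto C57BL/6 and kept free of specific pathogens, and all carried GFP knocked into Gfi1, whose product represses transcription during myeloid development. The Gfi1-deficient cells were CD11b+ Gr1-low cells of a mouse with the genotype GFP:Gfi1 KI/KI, for which the labels name no GFP gate. The GFP-high and GFP-low cells were CD11b+ Gr1-low cells of GFP:Gfi1 KI/WT mice, and the granulocytes were CD11b+ Gr1-high cells of the same genotype. The heterozygous populations therefore keep 1 wild-type Gfi1 allele, and no population from wild-type mice was measured. With 1 array a population there is no replicate error and no test. A difference of at least 2-fold, that is 1 unit on the log2 scale, is counted as a description of these arrays. The labels do not say whether animals were pooled.

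The respiratory chain sits in the inner mitochondrial membrane and turns the energy of food into ATP. Complex I takes electrons from NADH and complex II from succinate, ubiquinone carries them to complex III, cytochrome c carries them on to complex IV, and complex IV passes them to oxygen. Complexes I, III and IV pump protons as they do so, and complex V, the ATP synthase, makes ATP as the protons flow back. Mature neutrophils are known for few mitochondria and a reliance on glycolysis, while monocytes and dividing myeloid precursors hold more mitochondria.

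The array medians lay between 5.91 and 6.01 on the log2 scale. Gfi1 itself stood at the floor of 5.18 in the Gfi1-deficient cells, at 10.31 in GFP-high cells, at 3.74 in GFP-low cells and at 7.31 in granulocytes. Whether its probe set lies in the replaced part of the gene is not given in the sources used here. Of 10 listed monocyte genes, 8 were named on the array. Their median level was 12.29 in Gfi1-deficient and 12.26 in GFP-low cells, but 7.21 in GFP-high cells, below the 8.00 of granulocytes. The 5 primary granule genes of immature granulocytic cells, such as Mpo and Elane, had a median level of 11.42 in Gfi1-deficient cells, 13.32 in GFP-high cells, 8.08 in GFP-low cells and 8.26 in granulocytes. For the 5 secondary granule genes the medians were 9.80, 14.07, 12.31 and 13.96 in the same order. The markers of GFP-high cells thus go against the label monocyte, and these cells are named here by their GFP level. Some markers of other blood cells exceeded the floor, as did 59.2% to 61.0% of all probe sets on the 4 arrays. A count near that share does not show that such cells were present. Of the 4 erythroid genes on the array, 3 exceeded the floor on every array and Hba-a1 on none, and the list median was 6.12 in Gfi1-deficient, 6.24 in GFP-high and 6.57 in GFP-low cells and 7.13 in granulocytes. Of the 5 B cell genes, 2 exceeded the floor on each Gr1-low array and 3 in granulocytes, with Pax5 and Ebf1 below it on all arrays. Their summed linear signal was 185 in Gfi1-deficient, 228 in GFP-high and 323 in GFP-low cells and 463 in granulocytes. Of the 3 T cell genes, 1 exceeded the floor in Gfi1-deficient and GFP-low cells and 2 in GFP-high cells and granulocytes, Cd3g on none, and the highest value was 8.48 in granulocytes. Of the 2 NK cell genes, Ncr1 was below the floor on all arrays. The part of these cells in the granulocyte values below was not tested. Of the 4 eosinophil genes on the array, 3 exceeded the floor in Gfi1-deficient and in GFP-high cells, 1 in GFP-low cells and 2 in granulocytes. Their median level was 6.96 in Gfi1-deficient cells, 9.16 in GFP-high cells, 5.18 (the floor) in GFP-low cells and 6.10 in granulocytes. For 5 macrophage genes the medians were 6.26, 8.22, 6.07 and 7.17 in that order. In GFP-high minus GFP-low cells, 4 of these genes passed 2-fold upward and 1 downward (-2.425), beside 9.03% and 9.61% of all named genes. Of 3 progenitor genes with a difference there, 1 was above 0 (2.94) and 2 below, beside 52.3% and 47.5% of all named genes. The part of such cells in the GFP-high values was not tested. The male gene Eif2s3y stood at 8.31 in the Gfi1-deficient cells and below the floor elsewhere, and Xist stood at 5.80 there against 9.56 to 10.93. Where the Gfi1-deficient cells are compared with GFP-high or GFP-low cells, genotype, sex and the GFP gate cannot be told apart. Where they are compared with granulocytes, genotype, sex and the Gr1 gate cannot be told apart.

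Of the 86 members, 83 exceeded the floor of 5.18 on at least 1 array, beside 8621 of 12393 named genes, and 81 members did so on all 4. The floor is the 40th percentile of all values. The 3 members below it on all arrays were Cox4i2, Cox7a1 and Cox8b, alternative subunits of complex IV known from lung, heart and muscle. A value below the floor was set to it, so that a difference from such a value is a bound. Among the other members, Cox7c and Ndufaf5 lay below the floor in granulocytes and above it on the other arrays. Differences are given below for the 83 members.

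Respiratory chain genes were lowest in granulocytes. The granulocyte array held the lowest of the 4 values for 68 of 83 members, where it did so for 36.7% of all named genes above the floor. The members' median difference from GFP-low cells was -0.68 on the log2 scale, a 1.60-fold lower level, beside a median of 0.00 over all named genes. Of the 83 members, 23 were at least 2-fold lower in granulocytes than in GFP-low cells, beside 18.2% of all named genes, and none was 2-fold higher, beside 10.0%. A lower value in granulocytes was seen for 73 members, beside 50.0% of all named genes. Among genes with a mean level of at least 9, 19.2% were 2-fold lower in this comparison, 16.6% against GFP-high and 21.0% against Gfi1-deficient cells. At a fold of 1.5, 47 members were lower, beside 28.7% of all named genes, and 2 were higher, beside 19.3%. The members' shift was thus broad and moderate rather than made of a few large differences: their quartiles were -1.12 and -0.18, against -0.71 and 0.45 for all named genes. Since a bulk array averages over the sorted cells, fewer cells with a gene's RNA and less of that RNA per cell cannot be told apart.

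The same array set against the other Gr1-low populations gave similar values, and these comparisons share the granulocyte array. Against GFP-high cells the members' median was -0.67, beside 0.03 over all named genes. In this comparison 27 members were at least 2-fold lower, beside 16.4% of all named genes, and none was 2-fold higher, beside 8.93%. Lower values were seen for 74 members, beside 47.9%, and 51 were lower by 1.5-fold or more, beside 25.6%. Against Gfi1-deficient cells the median was -0.85, beside -0.01. There 31 members were at least 2-fold lower, beside 20.3% of all named genes, and none was 2-fold higher, beside 11.2%. Lower values were seen for 79 members, beside 50.2%, and 52 were lower by 1.5-fold or more, beside 30.6%. At least 2-fold lower levels in granulocytes than on each of the other 3 arrays were seen for 20 members, beside 10.2% of all named genes. Against at least 1 of those arrays the count was 35, beside 25.6%, and 37 members were 2-fold apart in any comparison, beside 42.8%.

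**Figure D1:**
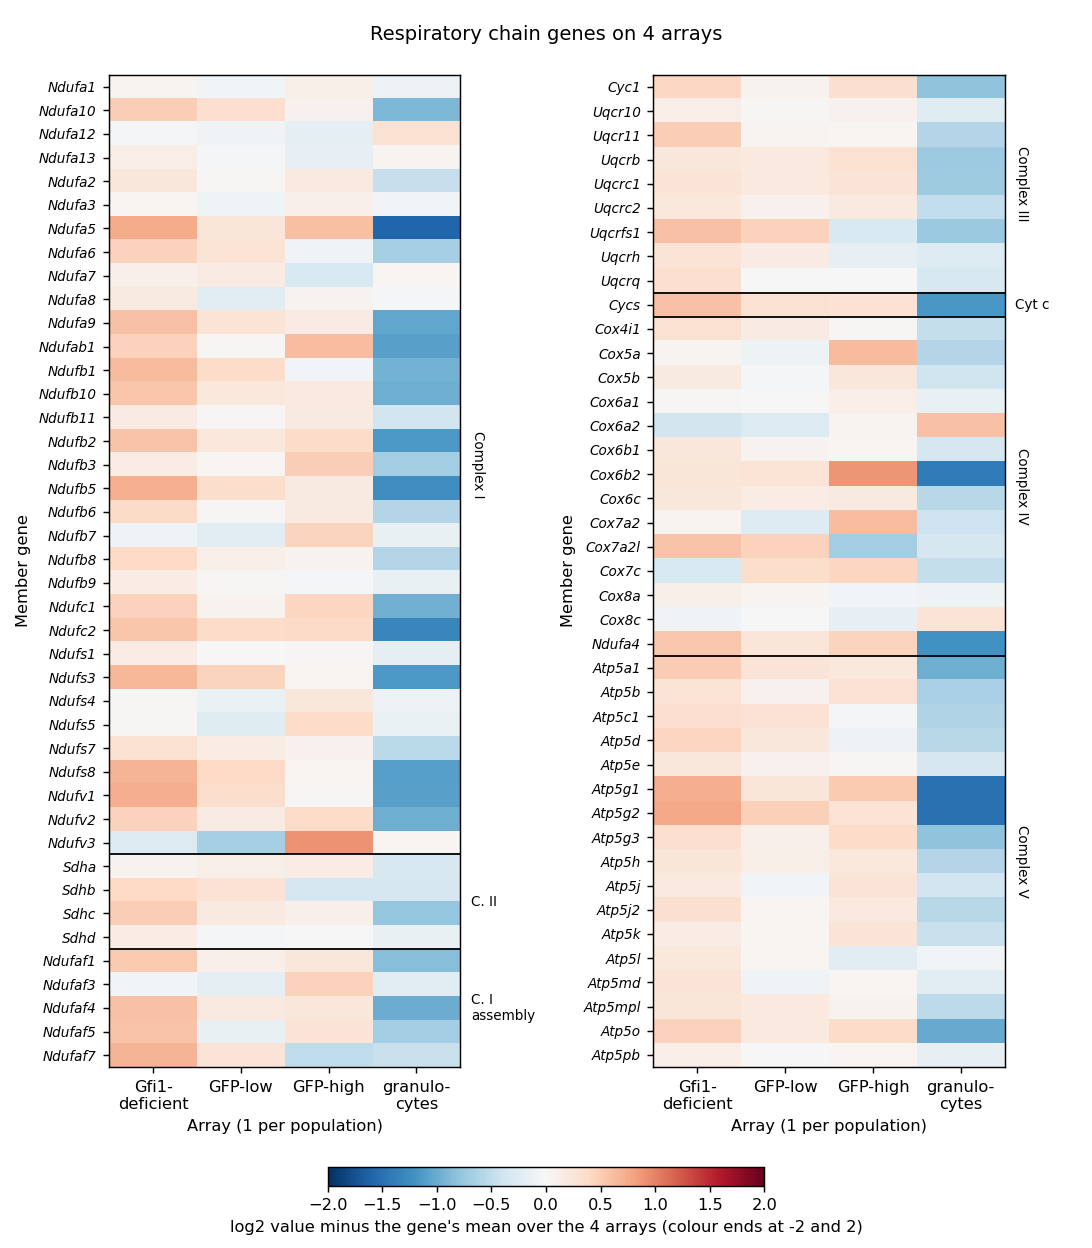
Each row is a member above the floor on at least 1 array and each column is 1 array. The colour gives the log2 value minus the gene's mean over the 4 arrays, from blue (below) to red (above), ending at -2 and 2, with C. standing for complex and Cyt c for cytochrome c. The granulocyte column is the lowest for 68 of 83 members and the Gfi1-deficient column the highest for 57.

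**Figure D2:**
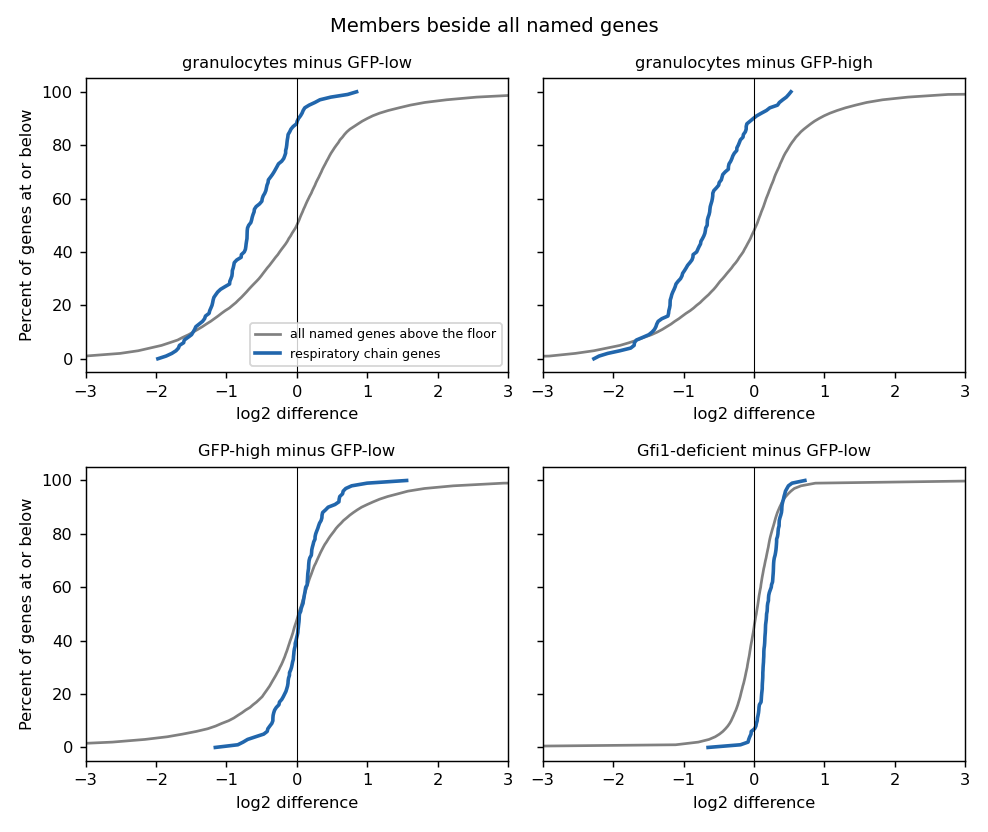
Each panel plots the percent of genes with a log2 difference at or below the value on the horizontal axis, in blue for the 83 members and in grey for all named genes above the floor, and the axis is drawn from -3 to 3. In both granulocyte panels the members' curve lies to the left over most of its range, with medians of -0.68 and -0.67, while for GFP-high minus GFP-low the medians are 0.04 and 0.03. In the panel of Gfi1-deficient minus GFP-low cells the members' curve lies to the right over most of its range, with a median of 0.18.

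Several other measures differed along with these values. The 5′ to 3′ balance of the control transcript Actb, given as the 3′ minus the 5′ probe set, was 0.08 in granulocytes, 0.16 in GFP-high and GFP-low cells and 0.28 in Gfi1-deficient cells. For Gapdh it lay between -0.10 and -0.06 on the 4 arrays. A list of 21 cell cycle genes, 20 of them on the array, had its lowest summed linear signal in granulocytes, 5397, and its highest in GFP-high cells, 40347, with 17761 in GFP-low and 21706 in Gfi1-deficient cells. In granulocytes all 20 but Tyms exceeded the floor. Mature neutrophil genes, 6 of 8 listed being on the array, had their highest summed signal in granulocytes, 67688. Their sum was 45033 in GFP-high, 26472 in GFP-low and 14777 in Gfi1-deficient cells. The part of RNA quality, cell division or cell maturity in the respiratory chain differences was not tested.

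Complex I, the NADH dehydrogenase, held 12 of the 20 members that were lowest in granulocytes by 2-fold against every other array. Of all named genes, 10.2% were lower by as much against every other array. The median difference of complex I from GFP-low cells was -0.70, and 14 of its 33 members were at least 2-fold lower, beside 18.2% of all named genes. Levels below are log2 values in the order Gfi1-deficient cells, GFP-high cells, GFP-low cells and granulocytes. Ndufa5, an accessory subunit of the matrix arm, stood at 8.59, 8.44, 8.09 and 6.26. The 3 Gr1-low arrays lay close together and the granulocyte array 3.56-fold below the GFP-low array. Its 2 probe sets gave differences of -1.83 and -1.53.

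The catalytic core of complex I was uneven. Ndufv1, which binds FMN and receives electrons from NADH, stood at 10.14, 9.45, 9.77 and 8.34. Its neighbour Ndufv2, which carries an iron-sulfur cluster, stood at 10.77, 10.67, 10.46 and 9.32. Ndufs8, another iron-sulfur subunit, stood at 11.61, 10.97, 11.33 and 9.83. Each of these core subunits was lowest in granulocytes, with differences from GFP-low cells of -1.43, -1.14 and -1.50, although 1 of the 6 probe sets of Ndufs8 gave 0.47. Ndufs3, also a core subunit, stood at 9.83, 9.22, 9.63 and 8.03 and differed by -1.60. The core subunit Ndufs1, which carries iron-sulfur clusters in the same arm, was at 8.93, 8.81, 8.79 and 8.60, a difference of -0.19 that is under the 2-fold rule. Ndufs7, next to the ubiquinone site, gave -0.68.

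Among the accessory subunits of complex I, Ndufc2 stood at 10.87, 10.71, 10.70 and 9.02 and Ndufb5 at 10.69, 10.15, 10.33 and 8.74. Both were lower in granulocytes than in GFP-low cells, with differences of -1.68 and -1.60. The others at least 2-fold lower in this comparison were Ndufb2 (-1.36), Ndufa9 (-1.31), Ndufb1 (-1.30), Ndufa10 (-1.23), Ndufb10 (-1.19), Ndufab1 (-1.11) and Ndufc1 (-1.03). Ndufb3, at -1.19, passed 2-fold against GFP-high cells alone. Ndufa6, at -1.12, did so against Gfi1-deficient cells alone. Ndufab1, the mitochondrial acyl carrier protein, rests on a probe set that may also detect related transcripts, and its value against GFP-low cells was -0.19 without that probe set. For Ndufa10 the second probe set lay near the floor, and the median over both gave -0.72.

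A group of complex I genes did not follow. In granulocytes minus GFP-low cells, 8 of 33 differences were above 0, beside 50.0% of all named genes. They were those of Ndufv3 (0.70), Ndufa12 (0.36), Ndufa8 (0.18), Ndufs5 (0.11), Ndufa13 (0.09), Ndufb7 (0.07), Ndufa3 (0.03) and Ndufs4 (0.01). Another probe set gave -0.05 for Ndufa3 and -0.47 for Ndufs4. Ndufa12 stood at 10.43, 10.28, 10.40 and 10.77, and granulocytes were its highest array. Its 4 probe sets were all higher in granulocytes than in GFP-low cells, by 0.36 to 1.92, and 3 of them lay between 0.36 and 0.46. Subunits of one complex were therefore not shifted by 1 common amount: the complex I differences ran from -1.83 to 0.70, with quartiles of -1.30 and -0.07. As a measure of error, the log2 differences from paired probe sets of a gene were subtracted from each other. The SD of these gaps, scaled down to that of a single probe set, was 0.36 over 2709 genes and 0.19 over 41 members in this comparison. It measures the accord of probe sets on the same arrays and not the spread between animals.

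**Figure D3:**
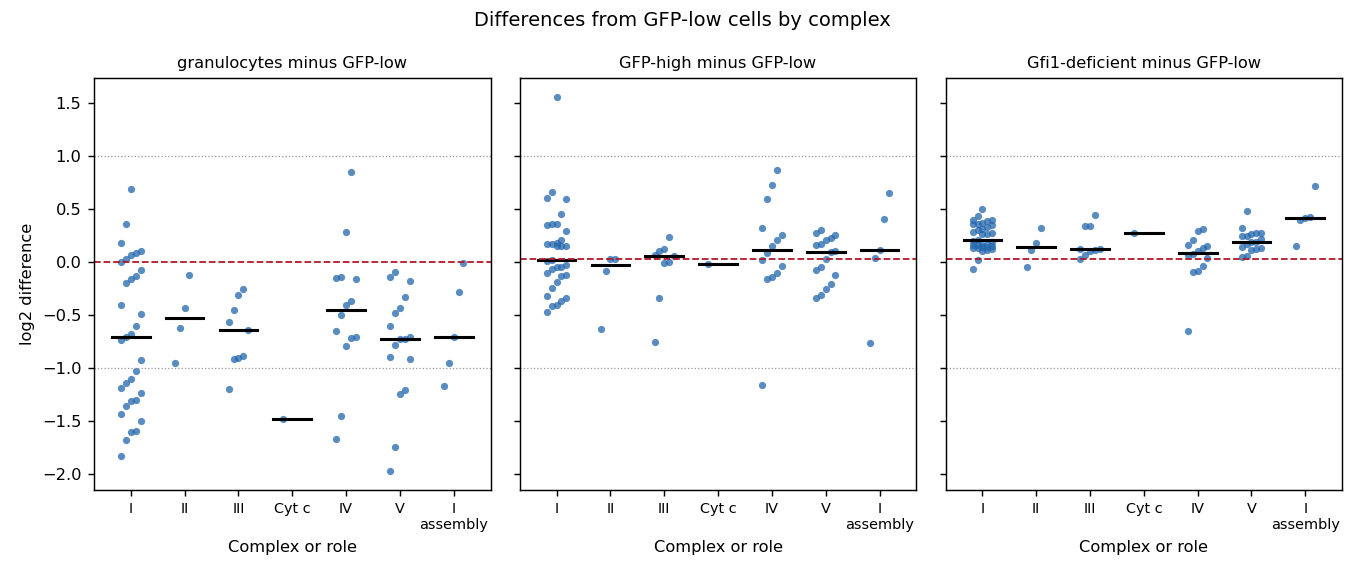
Points are members by complex, with the log2 difference from GFP-low cells on the vertical axis and 1 panel each for granulocytes, GFP-high cells and Gfi1-deficient cells. The black bar is the median of the complex, the red dashed line the median of all named genes and the dotted lines mark 2-fold. In granulocytes minus GFP-low cells the complex medians lie between -0.72 and -0.45, apart from cytochrome c at -1.48, and the complexes overlap.

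Complex II, the succinate dehydrogenase, also belongs to the citric acid cycle. None of its 4 subunits was 2-fold lower in granulocytes than in GFP-low cells, beside 18.2% of all named genes. The flavoprotein Sdha stood at 10.06, 10.14, 10.10 and 9.67, the iron-sulfur subunit Sdhb at 10.88, 10.13, 10.76 and 10.14, and the membrane anchors Sdhc and Sdhd at 9.48, 9.07, 9.16 and 8.21 and at 10.30, 10.15, 10.12 and 10.00. Sdhb was as low in GFP-high cells as in granulocytes. The lowest relative value of granulocytes was that of Sdhc, -0.95 against GFP-low cells, but its second probe set gave -0.05. Against Gfi1-deficient cells Sdhc gave -1.27.

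For complex III, the cytochrome bc1 complex, granulocytes were the lowest array in 9 of 9 members, beside 36.7% of all named genes. The median difference from GFP-low cells was -0.64. The Rieske iron-sulfur protein Uqcrfs1 stood at 10.70, 9.81, 10.57 and 9.38. It was the 1 member at least 2-fold lower than in GFP-low cells (-1.20), beside 18.2% of all named genes. GFP-high cells were closer to granulocytes than to the other Gr1-low cells for this gene. Cyc1, which holds the haem of cytochrome c1, stood at 10.21, 10.10, 9.87 and 8.98. The core proteins Uqcrc1 and Uqcrc2 gave -0.90 and -0.57. Of the small subunits, Uqcrb gave -0.92, Uqcr11 -0.64, Uqcrh -0.45, Uqcrq -0.31 and Uqcr10 -0.26. Against GFP-high cells, Cyc1 (-1.12) and Uqcrb (-1.03) passed 2-fold, and Uqcr11 (-1.09) did so against Gfi1-deficient cells.

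Cytochrome c, the soluble carrier between complexes III and IV and a trigger of apoptosis once released into the cytosol, is encoded by Cycs. It stood at 11.60, 11.30, 11.33 and 9.85. The 3 Gr1-low arrays lay within 0.30 of each other and granulocytes were 2.78-fold below GFP-low cells. Its 3 probe sets gave differences of -1.43, -1.48 and -1.63, so that the value did not turn on the probe set.

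Complex IV, cytochrome c oxidase, had a median difference of -0.45 between granulocytes and GFP-low cells, with quartiles of -0.71 and -0.15. In these data the nuclear subunits Cox4i1, Cox5a and Cox5b gave -0.65, -0.50 and -0.36. Cox6c gave -0.71, Cox6b1 -0.40, Cox8a -0.16, Cox7a2 -0.15 and Cox6a1 -0.14. The members past 2-fold were Ndufa4, at 10.14, 10.05, 9.84 and 8.39, and Cox6b2, at 7.34, 7.98, 7.38 and 5.70. Ndufa4 was first assigned to complex I and is now known as a subunit of complex IV. Cox6b2 is a form known from testis; its granulocyte value lay near the floor, and its difference was -0.57 with the floor at the 60th percentile. Cox5a and Cox7a2 passed 2-fold against GFP-high cells alone, at -1.22 and -1.02.

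Of the tissue-restricted forms of complex IV subunits above the floor, Cox6b2 was lowest in granulocytes while the other two were highest there. Cox6a2, the heart and muscle form of Cox6a1, stood at 6.48, 6.89, 6.57 and 7.42, and granulocytes were its highest array. Cox8c, known from testis, stood at 6.90, 6.82, 6.98 and 7.27, again highest in granulocytes. Cox7c, a ubiquitous subunit, rested on a probe set close to the floor, at 5.24, 5.98, 5.89 and 5.07, and is not read further.

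Complex V, the ATP synthase, had a median difference of -0.72 between granulocytes and GFP-low cells. All 17 of 17 members were below 0, beside 50.0% of all named genes. Its largest differences were in the c ring, the rotor that protons turn. Atp5g1, Atp5g2 and Atp5g3 encode precursors that differ in their import sequence and give the same mature c subunit. Atp5g1 stood at 9.45, 9.24, 8.96 and 7.22, and Atp5g2 at 11.03, 10.55, 10.75 and 8.78. Granulocytes were 3.35-fold and 3.92-fold below GFP-low cells for these genes, while the 3 Gr1-low arrays spanned 0.48 log2 units for each. The third gene, Atp5g3, stood at 12.04, 12.08, 11.82 and 10.90, a difference of -0.92. It was past 2-fold against GFP-high cells, at -1.18, and against Gfi1-deficient cells, at -1.14. The second probe set of Atp5g2 lay below the floor on all arrays.

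In the catalytic head of complex V, the alpha subunit Atp5a1 stood at 12.01, 11.72, 11.76 and 10.52, a difference of -1.24 from GFP-low cells. The beta subunit Atp5b, which binds to it in the same hexamer, stood at 11.62, 11.64, 11.43 and 10.71 and differed by -0.72. The gamma and delta subunits Atp5c1 and Atp5d gave -0.89 and -0.79, and the epsilon subunit Atp5e -0.43. In the stalk, Atp5o, the oligomycin sensitivity protein, stood at 11.22, 11.12, 10.95 and 9.75 and differed by -1.21, while Atp5pb, the b subunit, differed by -0.18. The remaining members, Atp5h, Atp5j, Atp5j2, Atp5k, Atp5l, Atp5md and Atp5mpl, lay between -0.73 and -0.09, with Atp5k at -0.48.

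The complex I assembly factors are not part of the finished enzyme. Ndufaf4 stood at 7.34, 6.98, 6.94 and 5.77 and was 2-fold lower in granulocytes than on each other array, though its granulocyte value was near the floor. Ndufaf1 stood at 6.69, 6.38, 6.26 and 5.31, Ndufaf3 at 8.29, 8.79, 8.13 and 8.13 and Ndufaf7 at 8.57, 7.39, 8.16 and 7.45. Ndufaf5 stood at 6.18, 5.87, 5.46 and 4.92, with granulocytes below the floor, so that it was at least 0.28 log2 units lower there than in GFP-low cells. Against Gfi1-deficient cells, 4 of the 5 factors were at least 2-fold lower in granulocytes, beside 20.3% of all named genes. Ndufaf1 (-1.07) was so against GFP-high cells too. The granulocyte values of Ndufaf1, Ndufaf4 and Ndufaf5 were near or below the floor. Against Gfi1-deficient cells, Ndufaf5 (-0.96) and Ndufaf7 (-0.92) were under 2-fold with quantile normalization. Ndufaf4 gave -0.53 there with the floor at the 60th percentile.

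To show what lies upstream of the members that the results turn on, the bases before the RefSeq start in GRCm38.p6 are given for Atp5g2 and Ndufa5, whose levels differed most between granulocytes and GFP-low cells among members, for Cycs, and for Ndufv3 and Cox7a2l, which differed between GFP-high and GFP-low cells. Capitals mark a match to GCGC, any base and then TGCGC, or to its reverse complement, the core of the site of NRF1, a transcription factor of many respiratory chain genes. Atp5g2 is at chr15:102671048-102671297 and Ndufa5 at chr6:24527691-24527940. Cycs is at chr6:50566570-50566642, Ndufv3 at chr17:31519986-31520114 and Cox7a2l at chr17:83514334-83514583. Ndufv3 is on the plus strand and the others are on the minus strand, and the stretches printed for Cycs and Ndufv3 are shorter because they stop at another gene.
Atp5g2: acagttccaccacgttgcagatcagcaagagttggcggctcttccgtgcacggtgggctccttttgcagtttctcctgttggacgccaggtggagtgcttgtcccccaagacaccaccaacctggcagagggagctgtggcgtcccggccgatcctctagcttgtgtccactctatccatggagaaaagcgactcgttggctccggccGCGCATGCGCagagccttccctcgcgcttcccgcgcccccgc
Ndufa5: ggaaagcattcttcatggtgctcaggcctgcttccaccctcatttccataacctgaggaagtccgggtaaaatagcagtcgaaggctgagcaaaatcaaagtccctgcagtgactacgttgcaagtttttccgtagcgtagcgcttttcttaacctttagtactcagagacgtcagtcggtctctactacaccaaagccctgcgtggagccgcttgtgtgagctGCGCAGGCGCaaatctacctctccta
Cycs: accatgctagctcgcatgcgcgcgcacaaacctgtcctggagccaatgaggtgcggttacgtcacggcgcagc
Ndufv3: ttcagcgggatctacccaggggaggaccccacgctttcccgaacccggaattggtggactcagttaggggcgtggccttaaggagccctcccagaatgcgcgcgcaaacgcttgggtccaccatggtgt
Cox7a2l: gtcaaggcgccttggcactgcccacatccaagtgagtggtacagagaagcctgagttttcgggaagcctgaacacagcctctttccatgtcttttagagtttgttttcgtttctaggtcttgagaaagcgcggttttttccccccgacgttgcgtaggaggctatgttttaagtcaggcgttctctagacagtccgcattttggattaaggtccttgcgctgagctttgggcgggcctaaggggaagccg
The match begins 42 bases before the start of Atp5g2 and 26 bases before that of Ndufa5.

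A window was found for 71 of the 86 members, and both strands of the 250 bases before the start were searched in each, also where a shorter stretch is printed. The NRF1 core was present in 10 of 71 members (14.1%) and in 3.87% of 27025 genes. These members were Atp5g2, Atp5h, Atp5k, Cox6a1, Ndufa5, Ndufa8, Ndufaf4, Ndufs5, Sdha and Sdhd. Among members at least 2-fold lower in granulocytes than in GFP-low cells, 3 of 22 with a window held it, and among the others 7 of 49. The letters CCGGAAG, a site of ETS factors such as GABP, were present in 12 of 71 members (16.9%) and in 7.07% of all genes. They were found in 1 of 22 of the 2-fold lower members and in 11 of 49 others. Atp5h, Cox6a1 and Sdhd held both. A match of letters is a description of the window and not a bound site.

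GFP-high and GFP-low cells, which differ in monocyte and granule genes by many fold, were close in their respiratory chain genes. The members' median difference was 0.04, beside 0.03 over all named genes. Only Ndufv3 was at least 2-fold higher in GFP-high cells and only Cox7a2l at least 2-fold lower, 1 of 83 each, beside 9.03% and 9.61% of all named genes. On the 3 Gr1-low arrays 80 of 83 members lay within 1 log2 unit, beside 78.0% of all named genes, and the exceptions were Ndufv3, Cox7a2l and Ndufaf7. In this comparison the probe set SD came to 0.27 over 2775 genes and 0.12 over 42 members.

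Ndufv3, an accessory subunit of the NADH-binding module, stood at 10.81, 11.98, 10.42 and 11.11. GFP-high cells were its highest array, 2.95-fold above GFP-low cells, and granulocytes its second. Neighbouring subunits of that module, Ndufv1 and Ndufv2, differed by -0.32 and 0.21 between GFP-high and GFP-low cells, although another probe set of Ndufv1 gave 0.08. A single probe set measured Ndufv3. Cox7a2l stood at 11.24, 9.98, 11.14 and 10.34. It was lowest in GFP-high cells, 2.23-fold below GFP-low cells, and its 3 probe sets gave -1.16, -1.18 and -1.20. Its paralogue Cox7a2, a subunit of complex IV, ran the other way: it stood at 11.94, 12.50, 11.62 and 11.48, and GFP-high cells were its highest array.

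Other members between 1.5-fold and 2-fold higher in GFP-high than in GFP-low cells were Cox7a2 (0.88), Cox5a (0.73), Ndufaf3 (0.66), Ndufb7 (0.66), Ndufs5 (0.61), Cox6b2 (0.60) and Ndufab1 (0.60). Those lower by as much were Ndufaf7 (-0.77), Uqcrfs1 (-0.76) and Sdhb (-0.63). In complex V the differences ran from -0.34 for Atp5d to 0.31 for Atp5j. At this lower fold 8 members were higher and 4 lower, beside 17.1% and 16.7% of all named genes.

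**Figure D4:**
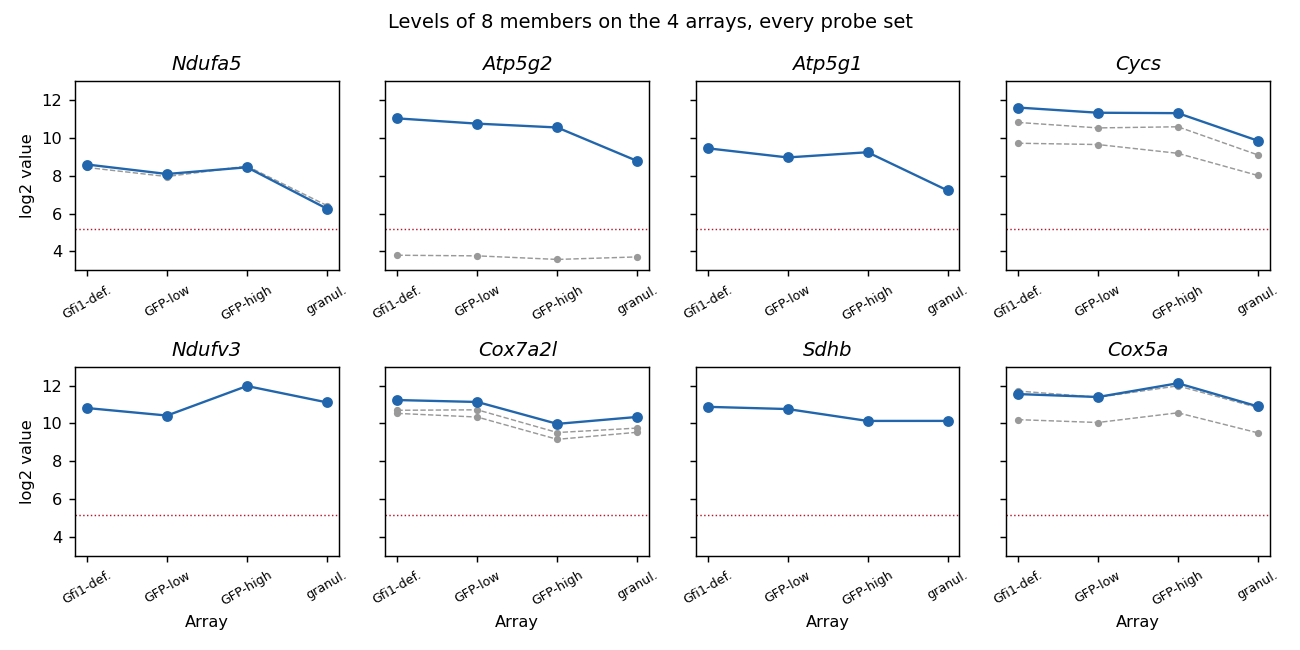
Log2 values of single members (vertical axis) on the 4 arrays (horizontal axis), in blue for the probe set used and in dashed grey for the gene's other probe sets, with the floor as a dotted line and no error bar because each population has 1 array. Cycs, Atp5g1, Atp5g2 and Ndufa5 drop on the granulocyte array, whereas Ndufv3 peaks at 11.98 and Cox7a2l dips to 9.98 in GFP-high cells.

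The Gfi1-deficient cells, set against GFP-low cells, had slightly higher respiratory chain values across the complexes. None of the 83 members was 2-fold apart in either direction, beside 0.637% higher and 1.27% lower of all named genes, and the members' median was 0.18, a 1.13-fold difference, beside 0.03 over all named genes. In direction, 77 of 83 members were above 0, beside 54.8% of all named genes. By complex, this held for 32 of 33 members in complex I, 3 of 4 in complex II, 9 of 9 in complex III, 10 of 14 in complex IV and 17 of 17 in complex V. Cycs and the 5 assembly factors were above 0 too. The complex medians were 0.21, 0.15, 0.12, 0.09 and 0.19 for complexes I to V, and 0.42 for the assembly factors. The highest differences were those of Ndufaf5 (0.72), Ndufa5 (0.50) and Atp5g1 (0.48). At a fold of 1.5, Ndufaf5 was the 1 member higher, beside 2.86% of all named genes, and Cox7c the 1 lower, beside 3.57%. The 6 members below 0, beside 44.9%, were Cox7c (-0.65), Cox6a2 (-0.09), Cox8c (-0.08), Ndufa7 (-0.07), Sdha (-0.04) and Cox6b2 (-0.04). Another probe set gave 0.16 for Sdha, and those of Ndufa7 ran from -0.07 to 0.14.

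These differences are near the probe set SD, which in this comparison was 0.16 over 2847 genes and 0.11 over 43 members. They rest on 1 array with its own sex, genotype and RNA balance, given above. On the same array 5 of 5 primary granule genes were at least 2-fold above GFP-low cells, beside 0.637% of all named genes, with a median difference of 2.47. Of 5 secondary granule genes, 3 were at least 2-fold lower, beside 1.27%, with a median of -3.52. The part of this makeup in the respiratory chain values was not tested. The Gfi1-deficient array was the highest of the 4 for 57 of 83 members, beside 23.6% of all named genes, and the lowest for Cox6a2 alone, beside 23.9%. GFP-high cells were highest for 22 members, beside 24.0%, and lowest for 8, beside 22.7%. GFP-low cells were highest for Ndufa7 alone, beside 14.0%, and lowest for 6, beside 16.6%. Granulocytes were highest for Ndufa12, Cox6a2 and Cox8c, 3 members, beside 38.3%. Against GFP-high cells, the Gfi1-deficient cells had 60 of 83 members above 0, beside 48.4%, with a median of 0.15. Cox7a2l (1.26) and Ndufaf7 (1.18) were at least 2-fold higher there, beside 9.53% of all named genes, and Ndufv3 (-1.16) at least 2-fold lower, beside 7.81%. Next in size were Uqcrfs1 at 0.89 and Sdhb at 0.74. At a fold of 1.5, 8 members were higher, beside 17.3%, and 3 lower, beside 15.6%. The values of Cox7a2l, Ndufv3, Uqcrfs1 and Sdhb in Gfi1-deficient cells were within 0.40 of those in GFP-low cells.

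Other lists of mitochondrial genes differed in how many were lower in granulocytes, where 18.2% of all named genes were at least 2-fold below GFP-low cells. Of 15 genes of the citric acid cycle and pyruvate dehydrogenase, 6 were at least 2-fold lower than in GFP-low cells, and the median was -0.83. Fumarase Fh1 stood at 9.65, 8.49, 9.05 and 6.08 and Idh3a, the catalytic subunit of NAD-dependent isocitrate dehydrogenase, at 8.94, 9.20, 8.45 and 5.80. These differences of -2.98 and -2.65 exceeded that of any respiratory chain member. Next came Idh3b, another subunit of that enzyme, at -1.62, and Suclg2, a succinate-CoA ligase subunit, which was below the floor in granulocytes and at least 1.26 lower. Malate dehydrogenase Mdh2 ran against them, at 0.78. Of 19 measured assembly factors outside the rule, 4 (21.1%) were 2-fold lower, a share near the 18.2% of all named genes: Uqcc2 of complex III (-2.18), Sdhaf1 of complex II (-1.71), Cox18 of complex IV (-1.49) and Acad9 of complex I (-1.25), and the list median was -0.46.

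The regulators of mitochondrial gene expression were mixed. Of 15 measured, 4 (26.7%) had values in granulocytes at least 2-fold below those in GFP-low cells, beside 18.2% of all named genes: Tfam, which packages mitochondrial DNA (-2.22), the mitochondrial transcription factor Tfb2m (-1.49), the coactivator Pprc1 (-1.35) and the single-stranded DNA binding protein Ssbp1 (-1.06). Gabpb1, a GABP subunit, was 2-fold higher, at 1.07, 1 of 15 beside 10.0%. GFP-high cells exceeded GFP-low cells by 2-fold for Myc (1.33), Gabpb1 (1.31) and Tfb1m (1.02), 3 of 15 beside 9.03% of all named genes. Tfam stood at 8.08, 7.80, 8.00 and 5.78, lowest in granulocytes. The gene Nrf1 stood at 7.21, 7.62, 7.37 and 7.49 and Gabpa at 8.20, 8.17, 8.11 and 7.58, and neither reached 2-fold in any comparison. Ppargc1a, a coactivator of mitochondrial biogenesis, lay below the floor on all 4 arrays.

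Import and carrier genes had the lowest median among these lists, -1.35, with 15 of 21 measured genes (71.4%) at least 2-fold lower in granulocytes than in GFP-low cells, beside 18.2% of all named genes. Slc25a4, an exchanger of ADP for ATP across the inner membrane, stood at 9.81, 6.20, 9.48 and 5.66. It was low both in GFP-high cells and in granulocytes, unlike its paralogue Slc25a5, which stood at 12.19, 11.74, 12.20 and 10.80. The chaperonin partner Hspe1 stood at 10.36, 8.69, 10.19 and 7.30, and it too was lower in GFP-high than in GFP-low cells. Hspa9, the import motor chaperone, gave -2.34 and Timm8a1, a carrier of imported proteins between the membranes, -2.13 in granulocytes minus GFP-low cells. The phosphate carrier Slc25a3, which supplies complex V, differed by -0.77. The mitochondrial ribosome makes the subunits that the mitochondrial genome encodes. Its 74 measured protein genes had a median of -0.92 in granulocytes minus GFP-low cells, and 34 (45.9%) were past 2-fold downward, beside 18.2%. The largest such differences were those of Mrpl52 (-2.94), Mrpl42 (-2.86) and Mrpl35 (-2.60), and Mrps28 was below the floor in granulocytes and at least 2.30 lower. In Gfi1-deficient minus GFP-low cells 73 of them were above 0, beside 54.8% of all named genes, with a median of 0.31 beside 0.03. Of 5 measured peroxide defence genes, Prdx3 (-1.56) and Sod2 (-1.09) were 2-fold lower in granulocytes than in GFP-low cells, 2 of 5 beside 18.2%, and the list median was -0.87. In Gfi1-deficient minus GFP-high cells the genes of these lists furthest above 0 were Slc25a4 (3.61), Hspe1 (1.67), Ecsit (1.59), Uqcc2 (1.20), Fh1 (1.16) and Idh3b (1.11), leaving aside the mitochondrial ribosome.

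**Figure D5:**
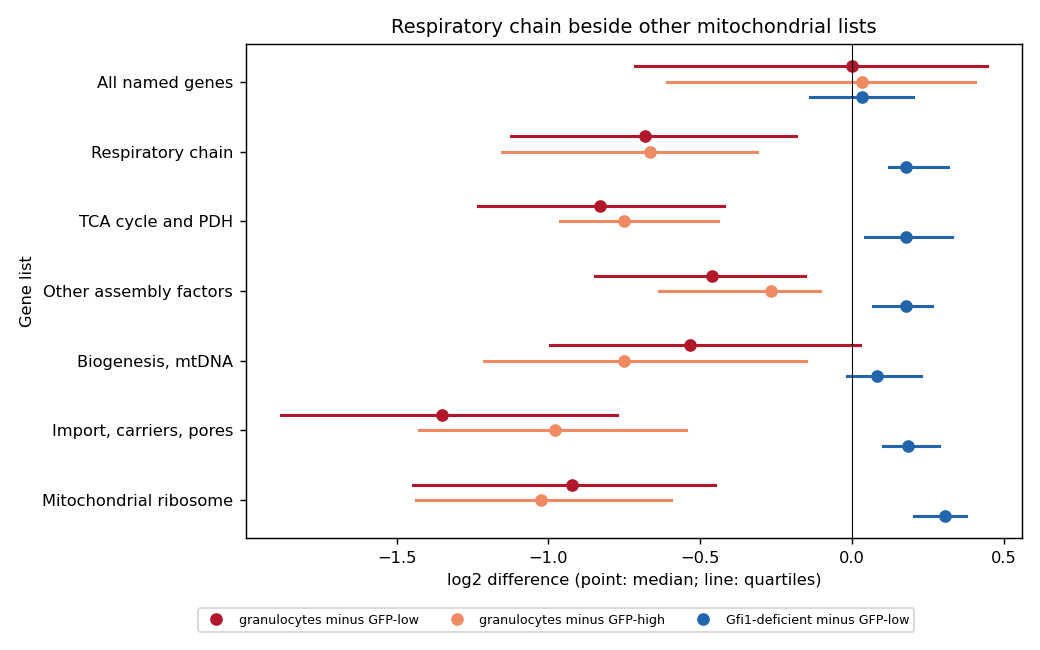
Median (point) and quartiles (line) of the log2 differences in each gene list, for granulocytes minus GFP-low cells, granulocytes minus GFP-high cells and Gfi1-deficient minus GFP-low cells. The lines are the spread over genes and not an error between samples. The 6 mitochondrial lists have medians from -1.35 to -0.46 in granulocytes minus GFP-low cells, where all named genes have 0.00.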

How the data were processed

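The authors deposited a table of 22690 probe sets by 4 Affymetrix arrays. The deposited values were taken as log2 from their range, since the log base is not stated. How the arrays were normalized is not given in the sources used, so a difference shared by most genes would not be seen. Per the labels' protocols, TRIzol RNA was labelled as biotin cRNA.

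Probe sets were named where the platform annotation gave 1 gene (20393), and the probe set highest on average stood for its gene. Values under the 40th percentile (5.18) were set to it, and pairs with both values below it got no difference. Levels were not compared between genes. The text names each member at least 2-fold apart in a comparison, the extremes of each complex and subunits by role. It names members whose probe sets disagree in sign in granulocytes minus GFP-low cells, and only some of those that disagree elsewhere. Of the other lists it gives the 4 largest differences past 2-fold, with other genes of known role chosen after their values were seen. Members and lists were chosen with earlier results of these data known. No test was possible with 1 array a population. The calculations were checked on simulated data and run in Python 3.11.15 with numpy 2.4.6 and pandas 2.3.3. Alternatives covered the probe set rule, the floor, the scaling, the fold and the members included.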

Additional observations from a re-analysis of the deposited data

How the results depend on the processing

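The members' medians kept their sign in each of the alternatives tried. They ranged from -0.70 to -0.58 for granulocytes minus GFP-low cells, from -0.69 to -0.61 against GFP-high cells and from -0.85 to -0.78 against Gfi1-deficient cells. Gfi1-deficient minus GFP-low cells gave 0.15 to 0.21, Gfi1-deficient minus GFP-high cells 0.13 to 0.17, and GFP-high minus GFP-low cells 0.03 to 0.09. The granulocyte array was lowest for 63 to 68 members and the Gfi1-deficient array highest for 52 to 58. Of 512 values recomputed, 493 stayed within the probe set SD (medians) or within 1.5 times (counts), and 19 counts moved. For medians this margin was wide: the SD over all named genes was 0.16 to 0.39, and several medians were smaller in size. The complex II median changed sign in GFP-high minus GFP-low cells (-0.05 to 0.03). That of complex IV did so in Gfi1-deficient minus GFP-high cells (-0.05 to 0.08). Without probe sets that may detect several transcripts, 1 member (Ndufa12) was at least 2-fold higher in granulocytes in each of the 3 comparisons, and 1 rather than 2 was higher in Gfi1-deficient than in GFP-high cells. With quantile normalization 1 member was 2-fold higher in granulocytes than in GFP-low and 1 than in Gfi1-deficient cells, and 1 than in Gfi1-deficient cells with each array centred on its median. Among structural subunits alone, 1 member was higher in Gfi1-deficient than in GFP-high cells. At a fold of 1.5, 47 members were lower and 2 higher in granulocytes than in GFP-low cells, and 51 lower than in GFP-high cells. Against Gfi1-deficient cells 52 were lower and 1 higher, the latter beside 21.8% of all named genes. The shares for the other counts at this fold are given above. At that fold GFP-high minus GFP-low cells gave 8 higher and 4 lower, Gfi1-deficient minus GFP-low cells 1 and 1, and Gfi1-deficient minus GFP-high cells 8 and 3. The cause was not tested, other than that a lower fold admits more members. Restricting the members to autosomal genes or to those with a mean level of at least 7, alternatives added after seeing the data, moved none of these counts by over 1.5 times. The floor shifted the median of all genes in granulocytes minus GFP-low cells by up to 0.12. No paired analysis was possible because each population has 1 array. Signal near the floor limits Cox6b2, Cox7c, Ndufaf1, Ndufaf4 and Ndufaf5, and the absence of replicates limits every comparison.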

Other observations

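Probe sets of a few members disagreed. For Ndufs8, 5 probe sets gave differences of -1.60 to -1.36 between granulocytes and GFP-low cells and the sixth gave 0.47, with levels of 7.31, 7.24, 7.47 and 7.94 in Gfi1-deficient cells, GFP-high cells, GFP-low cells and granulocytes. For Ndufa12, the probe set that gave 1.92 stood at 8.30, 8.29, 8.71 and 10.63. For Sdhc, the second probe set stood at 9.03, 8.81, 8.99 and 8.94. All probe sets of a member had the same sign in 33 of 41 members with several measured probe sets in granulocytes minus GFP-low cells. Over all named genes this held for 2209 of 2709. In GFP-high minus GFP-low cells it held for 34 of 42 members, beside 2175 of 2775 named genes. The members were thus near the share of all named genes. Low probe sets of Atp5c1, Uqcrq, Ndufb9, Cox5b and Uqcr10 gave 0.07, 0.39, 0.70, 0.56 and 0.13 in granulocytes minus GFP-low cells, where the probe sets used gave -0.89, -0.31, -0.16, -0.36 and -0.26. Ndufa3 gave -0.05 and 0.03 in this comparison, Ndufs4 gave -0.47, 0.01 and 0.01, and the 5 probe sets of Ndufa7 ran from -0.15 to 0.19. The 19 members on probe sets that may detect several transcripts had a median of -0.49 in granulocytes minus GFP-low cells, and the other 64 had -0.70.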
